A study of Mus musculus with 6 samples.

Results

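The genes of monoamine synthesis, storage and breakdown were examined in motor neurons (MNs) made from mouse embryonic stem cells (mESCs) of the Hb9 control line and the A2 line, a model of severe spinal muscular atrophy (SMA). The 8 genes, Th, Ddc, Dbh, Gch1, Slc18a2, Tph1, Maoa and Maob, were taken by name from the 34433 gene symbols in the table of expression levels, and each has a single entry in it. Th, Dbh, Slc18a2 and Ddc were 28.8-fold, 23.2-fold, 18.2-fold and 4.87-fold lower in A2 SMA MNs than in Hb9 control MNs. The folds of Th, Dbh and Slc18a2 rest on low levels in A2 SMA MNs. They were smaller with a constant added to both levels, and that of Dbh was then smaller than that of Slc18a2. Gch1 was 2.11-fold lower, just past 2-fold, and lay within 2-fold relative to the median gene. Tph1, Maoa and Maob lay within 2-fold of the control level.

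Both lines come from FVB/N mice that are SMN2+/+, carrying the human SMN2 transgene, and hold the HB9:eGFP reporter, in which the promoter of the MN gene Hb9 (Mnx1) drives a green fluorescent protein. Hb9 cells are wild-type for the mouse gene (mSmn+/+), and A2 cells are SMN2+/+;mSmn-/-. Each genotype is 1 cell line, so genotype and line cannot be told apart. Embryoid bodies of both lines received 1 µM retinoic acid and 1 µM Smoothened agonist for 5 days, and GFP-positive cells were then collected by FACS. RNA from 3 samples per genotype was sequenced, and levels are given in FPKM, which are fragments counted per length of exon and per size of the library, with 1 value per genotype over its 3 samples. Values of single samples were not used, so no error, test or replicate check accompanies any difference given here, and the number of reads behind a value is unknown. Smn1, the gene disrupted in A2 cells, stood at 137 FPKM in the control and 5.26 FPKM in A2 cells.

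Catecholamines are made from tyrosine. Tyrosine hydroxylase, the product of Th, carries out the rate-limiting step with tetrahydrobiopterin as its cofactor, and Gch1 encodes GTP cyclohydrolase 1, the first enzyme of tetrahydrobiopterin synthesis. Ddc encodes aromatic L-amino acid decarboxylase, which forms dopamine and also serotonin, the latter after tryptophan hydroxylase (Tph1 in most peripheral tissues, Tph2 in the brain). Slc18a2 encodes the vesicular monoamine transporter VMAT2, and Dbh the vesicle enzyme that turns dopamine into noradrenaline. The mitochondrial enzymes encoded by Maoa and Maob break monoamines down. Spinal MNs themselves are cholinergic, and monoamines reach them mainly from fibres that descend from the brainstem.

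Sequences around the start of Th, Slc18a2, Dbh and Ddc, which were the 4 genes at least 4-fold lower (as were 8.81% of the compared genes, the 15784 with a name that reached 1 FPKM in a genotype and were above 0 FPKM in each), are shown because Th and Slc18a2 hold the same motif there. They are the RefSeq promoter windows of build GRCm38.p6, which differs from the build of the expression table, and run from 250 bases before the annotated start to 50 bases from it. Capitals mark TGACGTCA, the palindromic cyclic AMP response element, and the homeodomain core ATTA on either strand (TAAT on the strand shown), where neighbouring matches can overlap.
Th, chr7:142899946-142900245, minus strand: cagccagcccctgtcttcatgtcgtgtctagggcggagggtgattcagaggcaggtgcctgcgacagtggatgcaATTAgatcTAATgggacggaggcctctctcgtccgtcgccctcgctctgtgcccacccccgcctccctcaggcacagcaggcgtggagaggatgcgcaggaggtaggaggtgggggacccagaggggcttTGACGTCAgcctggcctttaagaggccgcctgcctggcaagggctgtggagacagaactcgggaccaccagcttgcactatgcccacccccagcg
Slc18a2, chr19:59260628-59260927, plus strand: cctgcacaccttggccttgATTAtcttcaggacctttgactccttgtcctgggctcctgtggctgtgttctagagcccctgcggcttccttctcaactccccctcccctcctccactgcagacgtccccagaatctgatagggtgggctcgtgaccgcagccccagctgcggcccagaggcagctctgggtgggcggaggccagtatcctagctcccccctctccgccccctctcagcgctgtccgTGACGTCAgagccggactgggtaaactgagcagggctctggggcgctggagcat
Dbh, chr2:27165257-27165556, plus strand: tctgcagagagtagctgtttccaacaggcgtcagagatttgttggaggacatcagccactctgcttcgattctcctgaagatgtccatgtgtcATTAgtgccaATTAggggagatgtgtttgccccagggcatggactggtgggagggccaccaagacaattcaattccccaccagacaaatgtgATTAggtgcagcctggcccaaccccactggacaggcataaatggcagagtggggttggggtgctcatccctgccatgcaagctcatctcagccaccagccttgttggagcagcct
Ddc, window 1, chr11:11890359-11890658, minus strand: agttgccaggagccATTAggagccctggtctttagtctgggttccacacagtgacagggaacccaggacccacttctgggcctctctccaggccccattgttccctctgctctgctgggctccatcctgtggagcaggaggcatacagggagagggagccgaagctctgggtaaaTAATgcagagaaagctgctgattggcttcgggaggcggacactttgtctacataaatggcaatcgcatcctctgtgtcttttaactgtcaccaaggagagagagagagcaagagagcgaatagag
Ddc, window 2, chr11:11898095-11898394, minus strand: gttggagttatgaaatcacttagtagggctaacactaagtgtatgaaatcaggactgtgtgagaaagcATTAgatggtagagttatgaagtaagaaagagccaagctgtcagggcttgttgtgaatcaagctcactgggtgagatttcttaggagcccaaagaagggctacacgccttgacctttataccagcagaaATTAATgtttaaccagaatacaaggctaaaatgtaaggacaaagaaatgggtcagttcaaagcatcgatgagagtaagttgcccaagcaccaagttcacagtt

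TGACGTCA began 45 bases before the start of Th and 4 bases before that of Slc18a2. These were the only 2 matches among 9 windows of the 7 genes with an entry (Maob has none), and 1.79% of all 32851 promoter windows hold the motif. The homeodomain core was matched 3 times each in the Dbh window, in window 2 of Ddc and in 1 of the 2 Tph1 windows. It was present in 6 of the 9 windows, beside 58.0% of all windows. The windows of Gch1 and Maoa held neither motif. A match in a window of this length is a description of the letters and not a binding site.

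**Figure D1:**
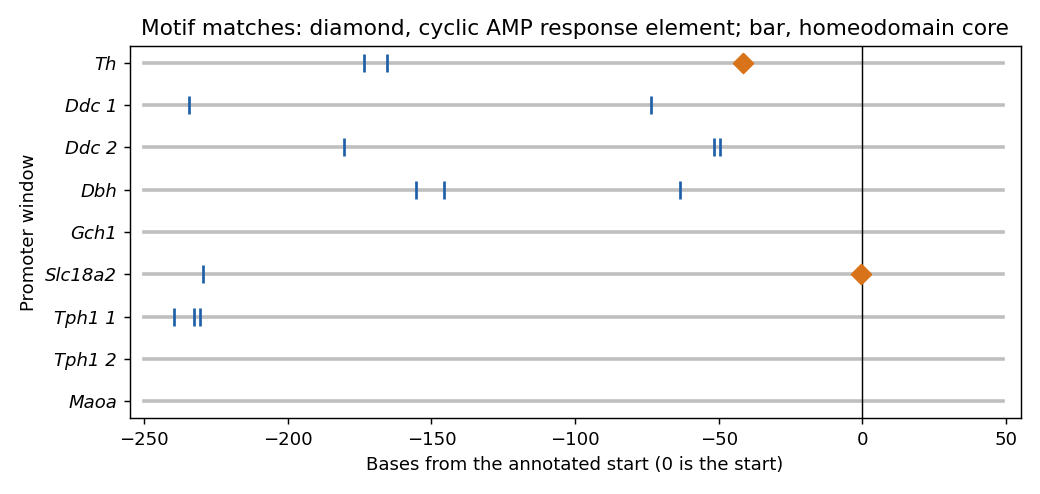
Positions of TGACGTCA (diamonds) and of the homeodomain core ATTA or TAAT (bars) in 9 promoter windows, drawn from 250 bases before to 49 bases after the annotated start, which is 0 on the x axis. The diamonds occur only in the Th and Slc18a2 windows, near the start.

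The catecholamine enzymes were described first. Th (chromosome 7, 150078657 to 150117033 of NCBI m37, the build of the table) was measured at 39.1 FPKM in Hb9 control and 1.36 FPKM in A2 SMA MNs. On the log2 scale the ratio of A2 SMA to Hb9 control was -4.85. Of the compared genes, 0.659% had a log2 ratio as low as that of Th or lower. In control cells its level exceeded that of 70.5% of these genes, and in A2 SMA MNs that of 11.7%.

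Dbh (chromosome 2, 27020753 to 27038720) was less abundant than Th in both genotypes. Its levels were 6.03 FPKM in Hb9 control and 0.26 FPKM in A2 SMA MNs, and its log2 ratio was -4.53. With 1 FPKM added to both levels the log2 ratio was -2.48. Dbh was the only 1 of the 8 genes to fall under 1 FPKM in a genotype, so it is among the compared genes through its control level alone. The ratio of Dbh to Th was 0.154 in Hb9 control MNs and 0.191 in A2 SMA MNs.

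Ddc (chromosome 11, 11714104 to 11798047) was the most abundant of the 8 genes in both genotypes, at 117 FPKM in Hb9 control and 24.0 FPKM in A2 SMA MNs (log2 ratio -2.28). The Ddc locus in the table also holds 1700042O10Rik, which GENCODE annotates as antisense, at 1.76 and 0.863 FPKM. The kit named for the libraries and the methods state no use of strand, so reads from such a pair may not be told apart. Since Th was lower by more than Ddc, the ratio of Th to Ddc was 0.334 in Hb9 control MNs and 0.0566 in A2 SMA MNs.

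Gch1 (chromosome 14, 47773570 to 47809088) was at 6.47 FPKM in Hb9 control and 3.06 FPKM in A2 SMA MNs. This log2 ratio of -1.08 is just past 2-fold, and it was -0.79 relative to the median gene. Gch1 was at 0.165 times the level of Th in Hb9 control MNs and at 2.25 times its level in A2 SMA MNs, a change of order between the genotypes.

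For storage, Slc18a2 (chromosome 19, 59335368 to 59370502) was at 26.9 FPKM in Hb9 control and 1.48 FPKM in A2 SMA MNs (log2 ratio -4.18). A ratio this low or lower was found for 1.41% of the compared genes.

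Tph1 (chromosome 7, 53902500 to 53927907), the serotonin branch of the list, was close to the 1 FPKM limit throughout. It was listed at 1.54 FPKM in Hb9 control and 1.05 FPKM in A2 SMA MNs, which is a log2 ratio of -0.55. It was the least abundant of the 8 genes in control cells, where Th was at 25.4 times its level, and in A2 SMA MNs Th was at 1.29 times its level.

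Of the breakdown enzymes, Maoa (chromosome X, 16196824 to 16264944) was at 12.4 FPKM in Hb9 control and 9.60 FPKM in A2 SMA MNs, and its log2 ratio of -0.36 became -0.08 relative to the median gene. Maob, its neighbour (16286408 to 16394507), was at 2.25 FPKM in Hb9 control and 2.84 FPKM in A2 SMA MNs, and its log2 ratio of 0.33, or 0.62 relative to the median gene, was the only 1 above 0 among the 8. The 698 compared genes of chromosome X had a median log2 ratio of -0.21 and the 15046 autosomal genes of -0.29.

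**Figure D2:**
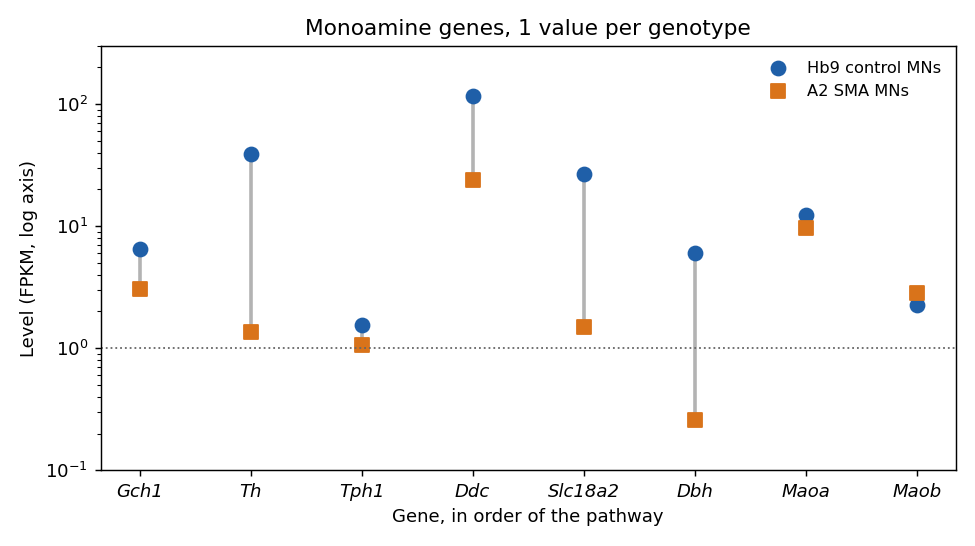
FPKM (log axis) of the 8 genes, ordered from cofactor and amine synthesis to storage and breakdown, in Hb9 control MNs (circles) and A2 SMA MNs (squares). Each symbol is 1 value per genotype without an error, the dotted line marks 1 FPKM, and the widest gaps are those of Th, Dbh and Slc18a2.

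The order of the genes differed between the genotypes. From the highest to the lowest level it was Ddc, Th, Slc18a2, Maoa, Gch1, Dbh, Maob and Tph1 in Hb9 control MNs. In A2 SMA MNs it was Ddc, Maoa, Gch1, Maob, Slc18a2, Th, Tph1 and Dbh. Neighbours in these orders such as Gch1 and Dbh in control cells (6.47 and 6.03 FPKM) or Slc18a2 and Th in A2 SMA MNs (1.48 and 1.36 FPKM) are close, and without a spread over samples none of the neighbours can be said to differ. Th was at 3.17 times the level of Maoa in Hb9 control MNs and at 0.142 times in A2 SMA MNs. For Slc18a2 the ratios to Maoa were 2.18 and 0.154, and for Ddc they were 9.48 and 2.51.

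Over the 8 genes, 5 were at least 2-fold lower in A2 SMA MNs and 0 at least 2-fold higher, without a test, beside 22.2% of all compared genes that were at least 2-fold lower and 6.78% that were at least 2-fold higher. At least 4-fold lower were 4 of the 8, beside 8.81% of all compared genes, and 3 were so relative to the median gene (7.09% of all), where Ddc was just inside 4-fold. Their median log2 ratio was -1.68, that of all compared genes -0.29, and 7 of the 8 were below 0 beside 65.9% of all. With ratios centred on the median gene, 4 of the 8 were at least 2-fold lower, beside 16.5% of all compared genes lower and 10.3% higher.

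**Figure D3:**
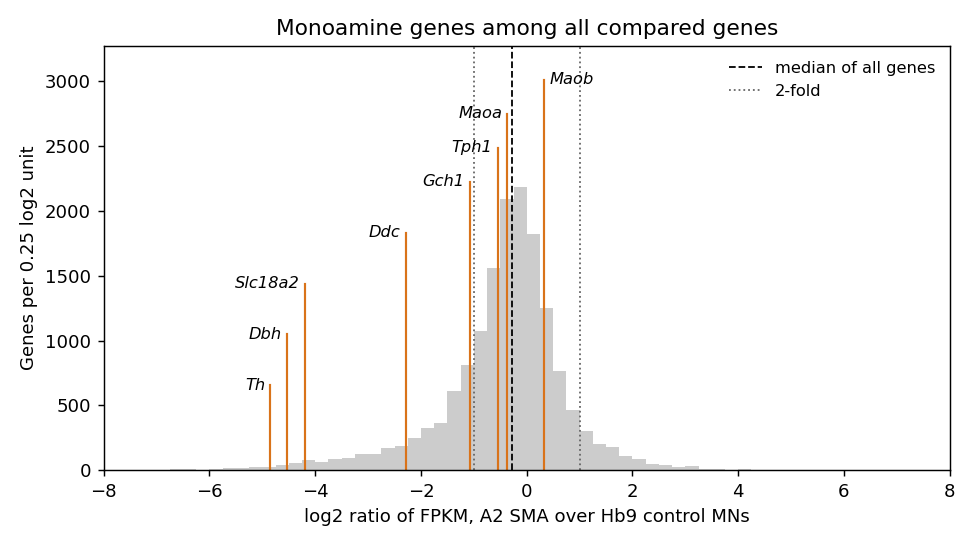
Distribution of the log2 ratio of FPKM, A2 SMA over Hb9 control MNs, over 15784 genes (grey bars, genes per 0.25 log2 unit), with the 8 genes as vertical lines whose heights carry no value. Th, Dbh and Slc18a2 lie in the lower tail, Ddc at -2.28, and Tph1 and Maoa near the median of -0.29 (dashed), while Maob is above it at 0.33.

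The genes whose pair of levels lay nearest to those of Ddc, Th and Slc18a2, the 3 with the highest level in either genotype (that in Hb9 control MNs), were found by the distance between log2 FPKM values over the 2 genotypes. For Ddc they were Tmem132a (114 and 24.4 FPKM in Hb9 control and A2 SMA MNs) and Sbk1 (117 and 22.7 FPKM), at distances of 0.039 and 0.085. For Th they were Begain (36.6 and 1.60 FPKM, distance 0.25) and Ctnna2 (31.0 and 1.49 FPKM, distance 0.36). For Slc18a2 they were Igsf11 (27.2 and 1.34 FPKM, distance 0.14) and again Ctnna2 (distance 0.20). These likenesses rest on 1 value per genotype.

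Nearby genes on the chromosome were looked up after the values of the 8 genes had been seen. Taking the nearest gene among the compared ones on each side, and leaving out Maoa and Maob as neighbours of each other, gave 14 neighbours. Of these 4 (28.6%) were at least 2-fold lower and 1 at least 2-fold higher, with a median log2 ratio of -0.20, and the share of lower ones is near the 22.2% of all compared genes. On either side of Dbh, Fam163b (2.19 and 0.433 FPKM, log2 ratio -2.34) and Vav2 (48.2 and 19.6 FPKM, log2 ratio -1.29) were lower in A2 SMA MNs. Th lay between Igf2as (log2 ratio -1.98) and Ascl2 (1.39), which differed in direction. Pdzd8, 72 bp beyond Slc18a2, was at 13.5 and 13.4 FPKM. Beside Ddc, Fignl1 had a log2 ratio of 0.16 and Grb10 of 0.73.

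Other genes of the pathway were taken as lists of related function, whose counts are read beside the 22.2% of all compared genes at least 2-fold lower and the 6.78% at least 2-fold higher. The enzymes that make and recycle tetrahydrobiopterin gave 7 compared genes, of which 2 were at least 2-fold lower and 0 higher, with a median log2 ratio of -0.02. This share of lower genes is near that of all compared genes, and 1 gene was lower relative to the median gene, where Pts was not. The lower ones without centring were Pts (22.8 and 10.5 FPKM in Hb9 control and A2 SMA MNs), which follows Gch1 in the synthesis, and Pcbd1 (31.9 and 11.8 FPKM), which helps to recycle the cofactor. Qdpr, the reductase that regenerates it, had 96.7 and 123 FPKM, and Spr, the last enzyme of its synthesis, had 56.5 and 67.4 FPKM.

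Of 9 further genes of monoamine synthesis, 8 were matched and 4 were compared, with a median log2 ratio of 0.33. Hdc, which makes histamine, was at least 2-fold higher, at 0.808 and 1.94 FPKM, and reached 1 FPKM in A2 SMA MNs alone. Pdxk, a kinase in the supply of the pyridoxal phosphate that Ddc needs, had 8.22 and 9.32 FPKM. Cyb561, which renews the ascorbate used by the Dbh product inside vesicles, had 42.6 and 21.9 FPKM, a log2 ratio of -0.96. The highest of the 4 genes under 1 FPKM in both genotypes was Tph2, at 0.409 and 0.351 FPKM.

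Among 8 further monoamine transporters, 6 were under 1 FPKM in both genotypes. They include Slc6a2 (0.932 and 0.555 FPKM), the noradrenaline reuptake transporter, and, named after their values were seen, Slc6a3 (0.096 and 0.082 FPKM) and Slc6a4 (0.177 and 0.169 FPKM), the reuptake transporters of dopamine and serotonin. Slc29a4, a low-affinity membrane monoamine transporter, was the most abundant and was lower in A2 SMA MNs, at 29.1 and 5.61 FPKM (log2 ratio -2.38). Slc18a1, which encodes VMAT1, had 0.866 and 1.05 FPKM, and did not share the low ratio of Slc18a2.

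Enzymes acting after or beside the monoamine oxidases gave 7 compared genes of 11, with 0 at least 2-fold lower, 1 higher and a median log2 ratio of 0.16. The higher one was Aldh9a1, an aldehyde dehydrogenase, at 24.7 and 67.1 FPKM (log2 ratio 1.44). Akr1a1, an aldehyde reductase, was the most abundant at 364 and 279 FPKM. The aldehyde dehydrogenases Aldh2 (66.1 and 85.2 FPKM) and Aldh3a2 (62.0 and 81.0 FPKM) had log2 ratios of 0.36 and 0.39.

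Monoamine receptors were mostly listed at low levels, with 21 of 28 under 1 FPKM in both genotypes. Of the 7 compared, 2 were at least 2-fold lower, a share near the 22.2% of all compared genes, and 1 was at least 2-fold higher (6.78% of all), and 3 reached 1 FPKM in Hb9 control MNs alone. The dopamine receptor genes Drd2 (1.61 and 0.147 FPKM) and Drd1a (1.41 and 0.238 FPKM) were the lower ones. Adrb3, a beta-adrenergic receptor gene, was the most abundant and the higher one, at 7.76 and 19.7 FPKM (log2 ratio 1.35).

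Of 19 transcription factors known for specifying monoamine neurons, 15 were compared, and 12 of these were at least 2-fold lower (22.2% of all compared genes) and 0 at least 2-fold higher, with a median log2 ratio of -2.37. Through their control level alone 5 of the 15 reached 1 FPKM. Phox2a (64.4 and 3.94 FPKM), a homeodomain factor required for noradrenergic neurons of the locus coeruleus, had a log2 ratio of -4.03. Insm1 (45.1 and 2.85 FPKM), a zinc finger factor of developing neuroendocrine cells, had a log2 ratio of -3.98. Foxa2 (55.9 and 18.2 FPKM), a factor of the floor plate and of dopamine neurons, had a log2 ratio of -1.62. The 3 compared factors within 2-fold were Lmx1b (13.0 and 12.3 FPKM), Hand1 (14.7 and 26.7 FPKM) and En2 (1.85 and 1.47 FPKM), and Lmx1b and Hand1 carry the status FAIL, given where Cuffdiff could not complete its comparison.

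Genes of dense-core vesicles, the organelles that hold monoamines together with peptides, gave 8 compared genes. Of these 7 were at least 2-fold lower in A2 SMA MNs, beside 22.2% of all compared genes, with a median log2 ratio of -3.24, and 2 of them reached 1 FPKM in Hb9 control MNs alone. Chgb (42.9 and 1.93 FPKM), Scg3 (32.1 and 1.65 FPKM) and Scg2 (21.4 and 1.10 FPKM) encode granins, and Cpe (69.1 and 9.87 FPKM) a peptide-processing enzyme. Pcsk1 was the exception, at 1.36 and 1.01 FPKM.

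**Figure D4:**
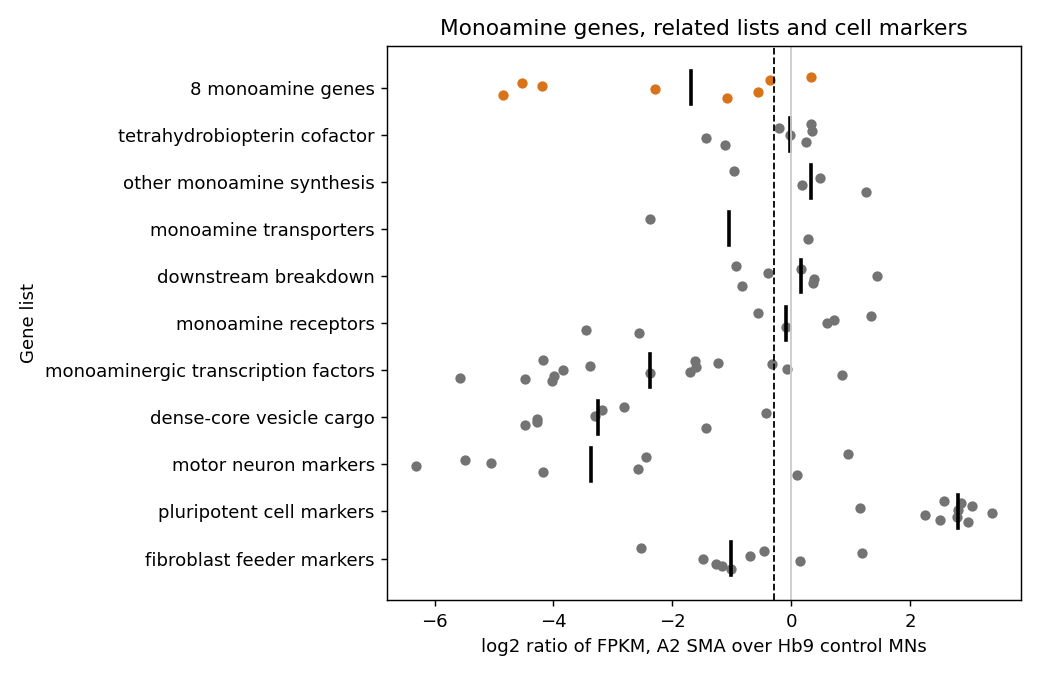
Log2 ratio of FPKM, A2 SMA over Hb9 control MNs, for the 8 monoamine genes and for the compared genes of each related list and of 3 sets of cell markers, with 1 dot per gene and black bars at the medians. The dashed line is the median of all compared genes (-0.29). The medians of the transcription factors and vesicle genes are -2.37 and -3.24, and those of the cofactor, receptor and breakdown genes lie between -0.10 and 0.16.

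The labelled cell type was checked against its markers. Of 10 MN markers 9 were matched and 8 compared, and 6 were at least 2-fold lower in A2 SMA MNs, beside 22.2% of all compared genes, with 3 of the 8 reaching 1 FPKM in Hb9 control MNs alone and with summed levels of 344 FPKM in Hb9 control and 80.6 FPKM in A2 SMA MNs. Lhx3 was at 27.6 and 0.348 FPKM, Isl1 at 108 and 5.95 FPKM and Slit2 at 125 and 23.1 FPKM. Nefh, a neurofilament gene named after its values were seen, was at 2.54 and 4.93 FPKM (log2 ratio 0.96), and was at least 2-fold higher relative to the median gene. Chat, the enzyme of acetylcholine synthesis, was named after its values were seen and had 15.5 and 0.344 FPKM. Mnx1, whose promoter drives the sorted reporter, had 41.2 and 44.2 FPKM. Thus Lhx3 and Chat were under 1 FPKM in the cells labelled A2 SMA MNs, while Mnx1 was not.

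All 10 markers of pluripotent cells were at least 2-fold higher in A2 SMA MNs, beside 6.78% of all compared genes, with sums of 291 and 1922 FPKM, and none was at 0 FPKM in either genotype. Pou5f1 was at 98.3 and 775 FPKM and Utf1 at 59.8 and 357 FPKM. Of the 10, 3 (Utf1, Esrrb and Tdgf1) carry the Cuffdiff status FAIL, which marks a numerical problem at that locus. The same status is carried by Lhx4, a lower MN marker, and by Col1a1, Pdgfra and Kit among the markers that follow. Of 10 markers of the fibroblasts used as feeder cells, 9 were compared, 5 were at least 2-fold lower and 1 higher, beside 22.2% and 6.78% of all compared genes, with sums of 127 and 77.8 FPKM. Of the 5 lower genes 2, Lum and Postn, reached 1 FPKM in Hb9 control MNs alone, and the higher one, Thy1, in A2 SMA MNs alone. Relative to the median gene Lum and Postn were the 2 still lower, beside 16.5% of all. The most abundant were Fbln1 (57.7 and 41.8 FPKM), Col1a2 (20.1 and 8.93 FPKM), Col1a1 (18.9 and 9.41 FPKM) and Col3a1 (15.9 and 6.57 FPKM). Of 7 mast cell markers, taken because mast cells express Tph1, 5 were at 0 FPKM in both genotypes, and Kit, which many other cells express, was at 41.3 and 72.5 FPKM. In sorted bulk RNA, fewer cells of a type and less RNA per cell cannot be told apart, and the part of these markers in the levels of Th, Dbh, Slc18a2 and Ddc was not tested.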

How the data were processed

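MNs of the Hb9 control and A2 SMA lines, 3 samples per genotype, were sequenced with a 50-cycle single-end run. Per the labels and the methods, the authors checked reads with FastQC 0.10.1, used cutadapt for trimming, TopHat 2.04 for mapping to NCBI m37 with its Ensembl annotation, Cufflinks for assembly and Cuffdiff for the comparison. The deposited gene-level table of 41945 entries gives 1 FPKM value per genotype, which combines its 3 samples. It also holds fold changes on a log2 scale, test statistics, p-values, q-values and a mark of significance from the authors' comparison, which were not used. Since the table holds no values of single samples, no test was run.

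The FPKM values were read with Python 3.11.15, pandas 2.3.3 and numpy 2.4.6, and figures were drawn with matplotlib 3.10.9. The column of gene symbols was split at commas, and for a symbol with several entries (769 symbols) the one with the highest FPKM was kept. Log2 ratios were taken without a pseudocount over the 15784 genes that reached 1 FPKM in a genotype and were above 0 FPKM in each, and a difference of 2-fold was counted. Counting was run on known folds set without noise on the control levels, which checks the code and gives no support for the counts. Named are the 8 genes, Smn1, at most the 4 most abundant genes of each list, genes that explain a count of 5 or fewer (some genes this rule would name are not reported here), and 2 nearest genes for each of the 3 of the 8 with the highest level in either genotype. The genes and lists were chosen with earlier results of these data known. Promoter windows came from RefSeq (GRCm38.p6), matched by symbol for 7 of the 8 genes.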

Additional observations from a re-analysis of the deposited data

How the results depend on the processing

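No paired analysis was possible because the table gives 1 value per genotype, and for the same reason no sample could be left out. Of 71 log2 ratios and medians recomputed under other settings, 11 were identical, as where each gene has 1 entry to sum. Of the other 60, 46 kept their direction, stayed on their side of 2-fold and moved by no more than 1.5-fold. Among the medians, 3 small ones changed sign, that of the tetrahydrobiopterin genes to 0.26 (centred on the median gene) and 0.12 (at least 5 FPKM) and that of the receptors to 0.19 (centred). Gch1 was no longer 2-fold lower when log2 ratios were centred on the median gene (-0.79), on the upper quartile (-0.79) or on Gusb, Pgk1 and Rpl13a (-0.94), or with a pseudocount of 1 FPKM (-0.88). With that pseudocount Th had a log2 ratio of -4.09, Slc18a2 of -3.49 and Dbh of -2.48, each still past 4-fold. Centring of the marker lists and of the 4-fold count was added after seeing the data. Requiring at least 5 FPKM kept Th, Ddc, Dbh, Gch1, Slc18a2 and Maoa, with a median of -3.23, but 4 of these 6 reach that limit through their control level alone. Centring on the median gene left 1 tetrahydrobiopterin gene lower, 2 receptors and 1 transcription factor higher (16.5% of all genes lower and 10.3% higher), and gave the transporters a median of -0.76. With at least 5 FPKM, 0 further synthesis genes were higher and 0 receptors lower, and the medians of the transporters and the receptors, each then 1 gene, were -2.38 and 1.35. The values rest on 1 number per genotype, and the reads behind levels near or under 1 FPKM, such as those of Tph1 and, in A2 SMA MNs, of Th, Slc18a2 and Dbh, are unknown.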
